A study of Mus musculus with 24 samples.

Results

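The endoplasmic reticulum folding and stress genes examined here were 35 genes, taken by symbol from 21441 genes measured in the colon, ileum and duodenum of mice. They comprised 11 chaperones and lectins, 4 disulfide isomerases, 4 stress sensors, 7 transcription factors and genes of the integrated stress response, and 9 genes of endoplasmic reticulum-associated degradation. All 35 had values in each region. The symbols were selected on values of these same libraries, taken here to be their level in each region and their treated against deficient difference. Levels, regional differences and treatment differences of the 35 genes are therefore descriptions, each with its SD or SE. Counts of genes past a threshold are printed beside the share of all genes, and nothing is read from them. The animals were wild-type C57BL6J mice. The treated group (3xD) received 3 injections of calcitriol (1,25D3, the hormonally active form of vitamin D) at 1 ng/g, at 48, 24 and 6 h before the end, and the vitamin D-deficient group (minusD) has no treatment given in its labels. The labels list 4 treated and 4 deficient samples for each region, from animals aged 10 to 14 in a unit not stated. Of these, 2 treated and 1 deficient sample per region came from females. The values used came from 23 RNA-seq libraries. The colon and the duodenum had 4 treated and 4 deficient libraries each, and for the ileum 4 treated and 3 deficient ones were used. They are FPKM, read counts scaled by the authors to transcript length and library size, and were rescaled so that every library has the same sum (TPM) wherever regions or genes are set side by side.

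Secreted and membrane proteins enter the endoplasmic reticulum, where chaperones bind them, lectins read their sugar chains and isomerases form their disulfide bonds. When unfolded protein accumulates, the sensors encoded by Ern1, Ern2, Eif2ak3 and Atf6 raise the transcription of chaperones and degradation genes through the factors encoded by Xbp1, Atf6 and Atf4, and Eif2ak3 also lowers translation. Atf4 induces Ddit3, Trib3, Asns, Chac1 and Ppp1r15a, the arm called the integrated stress response. In the intestine this machinery serves goblet, Paneth and enterocyte secretion, and Ern2 is the sensor known from mucus-producing epithelium.

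The DNA elements through which these factors act can be read in the RefSeq promoters (GRCm38.p6), each running from 250 bases before to 50 bases after the start of the gene, which were found for 29 of the 35 genes. The endoplasmic reticulum stress element, searched on both strands as CCAAT, 9 bases of any kind and CCACG, lay in the promoters of Hspa5, Hsp90b1, Calr, Canx, Dnajc3, Creld2, Pdia6, Syvn1 and Derl3, which is 9 of 29 (31.0%), against 37 of 27025 genes (0.137%). The second form of that element, ATTGG, 1 base of any kind and CCACG, lay in Herpud1 and Dnajb11, against 12 of 27025 genes (0.0444%). The element bound by Atf4 with its partners, TGATGNAA, lay in Herpud1, Trib3, Asns and Chac1, which is 4 of 29 (13.8%), against 4.51% of all genes, and the Xbp1 element TGACGTGG was in 0 of 29, against 0.714%. The letters CCACG, or their complement CGTGG, are shared by all of these motifs except TGATGNAA. The promoters printed here carry the motifs of the chaperones (Hspa5 and Hsp90b1), of the member with the largest positive treatment difference in each region (Herpud1) and of the integrated stress response (Trib3 and Asns), 5′ to 3′ on the strand of the gene, with the motif letters in capitals.
Hspa5: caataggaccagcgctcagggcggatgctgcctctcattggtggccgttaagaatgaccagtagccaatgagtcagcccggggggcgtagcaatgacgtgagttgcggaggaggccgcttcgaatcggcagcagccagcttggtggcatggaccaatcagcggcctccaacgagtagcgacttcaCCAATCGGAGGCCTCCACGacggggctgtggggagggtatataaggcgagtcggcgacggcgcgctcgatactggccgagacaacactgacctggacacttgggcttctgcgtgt
Hsp90b1: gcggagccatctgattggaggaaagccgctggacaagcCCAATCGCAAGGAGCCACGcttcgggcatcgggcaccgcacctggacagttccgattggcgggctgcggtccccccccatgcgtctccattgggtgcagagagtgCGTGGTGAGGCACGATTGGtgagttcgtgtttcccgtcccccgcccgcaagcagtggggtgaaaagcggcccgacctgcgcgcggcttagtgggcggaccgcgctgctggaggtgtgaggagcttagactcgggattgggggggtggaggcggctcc
Herpud1: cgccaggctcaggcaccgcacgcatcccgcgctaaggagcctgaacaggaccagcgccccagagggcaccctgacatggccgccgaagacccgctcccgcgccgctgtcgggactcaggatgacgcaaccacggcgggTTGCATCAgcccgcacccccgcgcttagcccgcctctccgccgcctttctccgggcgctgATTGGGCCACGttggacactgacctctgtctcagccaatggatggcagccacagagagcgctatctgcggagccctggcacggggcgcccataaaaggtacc
Trib3: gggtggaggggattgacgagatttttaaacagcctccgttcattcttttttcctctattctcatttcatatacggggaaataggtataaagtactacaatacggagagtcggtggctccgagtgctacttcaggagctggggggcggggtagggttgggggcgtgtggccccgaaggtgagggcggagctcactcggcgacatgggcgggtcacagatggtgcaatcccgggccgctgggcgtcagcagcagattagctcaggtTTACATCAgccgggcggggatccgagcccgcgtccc
Asns: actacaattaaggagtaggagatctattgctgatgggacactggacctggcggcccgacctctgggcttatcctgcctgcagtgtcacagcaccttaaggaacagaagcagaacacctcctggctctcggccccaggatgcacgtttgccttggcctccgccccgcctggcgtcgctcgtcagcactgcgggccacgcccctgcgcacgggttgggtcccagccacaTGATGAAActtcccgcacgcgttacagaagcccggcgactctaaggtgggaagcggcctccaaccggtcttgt

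The Hspa5 window is chr2:34771840-34772139 on the plus strand, with its motif beginning 65 bases before the start, and the Hsp90b1 window is chr10:86705395-86705694 on the minus strand, with motifs beginning 212 and 107 bases before it. The Herpud1 window is chr8:94386179-94386478 on the plus strand and carries both kinds of element, 112 and 52 bases before the start. The Trib3 window, chr2:152344011-152344310 on the minus strand, has its element within the first transcribed bases. The Asns window, chr6:7693160-7693459 on the minus strand, has it 23 bases before the start. These matches describe the letters of the windows and not binding, which the data do not measure. The genes were listed as members of the pathway whose factors act through these elements. Nothing is therefore read from their shares against those of all genes. Gene positions elsewhere in the files follow the earlier mm9 build, on which Herpud1 spans chr8:96910338-96919277 and P4hb chr11:120421612-120434567.

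The region labels held in the markers. Summed TPM of 5 colon markers was 3022 to 13391 in colon libraries and at most 90.7 elsewhere. That of 2 ileum markers was 2894 to 15189 in the ileum and at most 583 elsewhere, and that of 5 duodenum markers was 8601 to 16635 in the duodenum and at most 2545 elsewhere. Most of the duodenum sum was Apoa4 (8350 to 16179 TPM), which is also among the enterocyte markers used below. Gata4, Pdx1 and Cybrd1 were higher in each duodenal library than in any other. Slc40a1 overlapped, at 152 to 350 TPM in the duodenum and 93.9 to 251 TPM in the colon. Reads recovered from the FPKM steps numbered 12241511 to 31094718 per library. The treated libraries are called A to D here and the deficient ones E to H, and E is missing from the ileum values used. Library A and libraries F, G and H carry a serial number in the tables, whereas B, C and D and library E carry a 4-digit number. The serial libraries were deeper in every region, at 18855265 reads or more against at most 15270315. This naming scheme nearly coincides with treatment, and in the ileum no deficient library has a 4-digit number, so differences within each scheme are given beside those over all libraries. The labels do not say what the scheme marks. Within the serial libraries the only treated one is library A, and among the 4-digit libraries of the colon and duodenum the only deficient one is library E. The sign of the difference was opposite in the 2 schemes for 13 of 33 tested members in the colon and 17 of 34 in the duodenum. The share over all genes is not given here, and nothing about the members is read from these counts. Markers of exocrine pancreas, all 16 of them above 0, had sums of 269 to 52271 TPM in the colon, 276 to 2381 (ileum) and 1562 to 98079 (duodenum), and markers of stomach and Brunner glands (11 of 12 listed, with 2 to 5 of them at 0) summed to 55.7 to 319 TPM in serial and 8322 to 19203 TPM in 4-digit libraries of the duodenum. Their part in the duodenal differences was not tested.

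**Figure D1:**
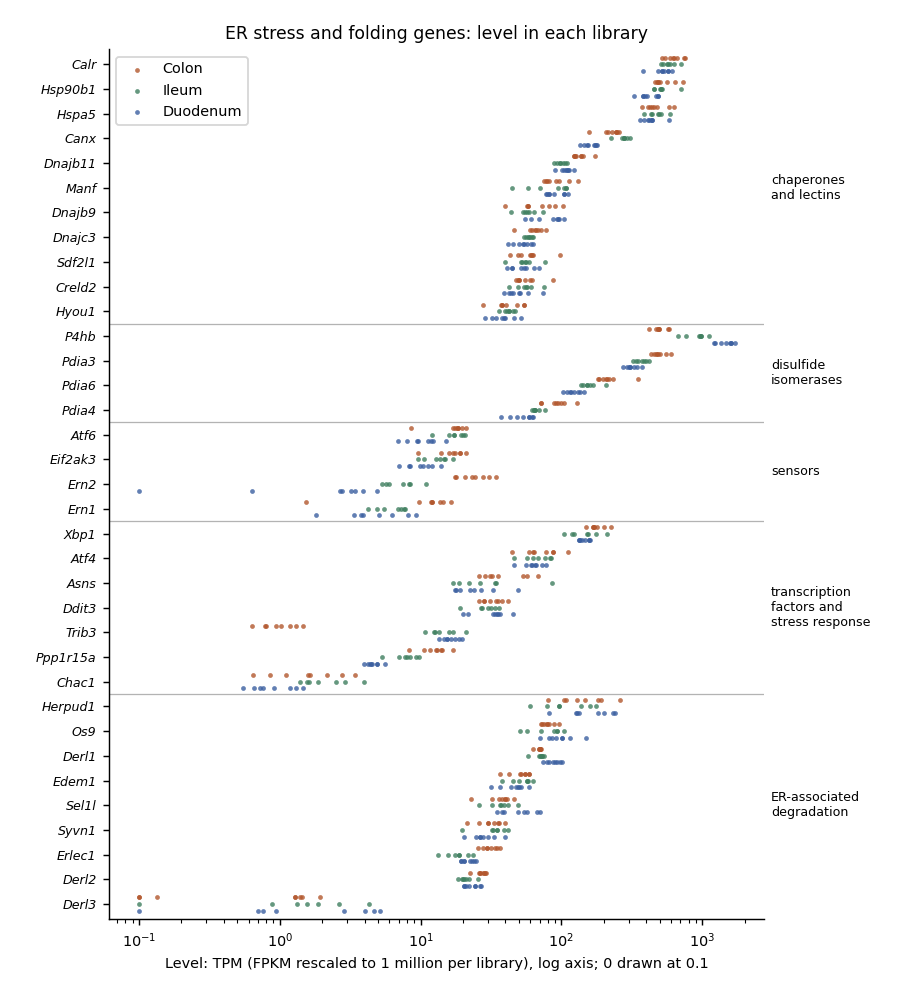
Level of each of the 35 genes in every library (TPM, log axis, values of 0 drawn at 0.1), 1 point per library coloured by region, with the genes grouped by role and ordered by mean level within a role. P4hb is at least 1217 TPM in each duodenal library, and Trib3 in the colon, Chac1 and Derl3 lie at the low end.

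The 5 most abundant of the genes in every region were the chaperones Calr, Hsp90b1 and Hspa5 and the isomerases P4hb and Pdia3. Among the others the roles were mixed, with Xbp1 at rank 8 of the 35 in each region, Herpud1 at rank 6 in the duodenum and the chaperone Creld2 at rank 18 to 20. Calr, the calcium-binding lectin chaperone, averaged 631 ± 83.4 TPM in the colon, 584 ± 66.5 in the ileum and 522 ± 68.6 in the duodenum (SD, n = 8, 7 and 8). Hsp90b1, the chaperone of the Hsp90 family in this compartment, averaged 543 ± 93.9, 521 ± 84.04 and 416 ± 59.3 TPM in the same order. Hspa5, the Hsp70 chaperone BiP that also holds the sensors inactive, averaged 475 ± 88.8, 475 ± 65.4 and 434 ± 63.7 TPM, with overlapping ranges of 373 to 634 in the colon, 384 to 589 for the ileum and 361 to 576 for the duodenum. These 3 chaperones were thus abundant along the whole intestine. P4hb, a disulfide isomerase that is also a subunit of prolyl hydroxylase and of the microsomal triglyceride transfer protein, was the highest of the 35 in the ileum and duodenum and below Calr and Hsp90b1 in the colon. At the other end, Derl3, a derlin of the degradation channel, averaged 0.932 ± 0.765, 1.80 ± 1.38 and 2.40 ± 2.03 TPM in the colon, ileum and duodenum, and Chac1, which degrades glutathione, 1.77 ± 0.962, 2.26 ± 0.924 and 0.943 ± 0.329 TPM. The 35 genes together made up 0.400% to 0.548% of the TPM of a colon library, 0.411% to 0.511% for the ileum and 0.452% to 0.533% for the duodenum. In whole tissue, fewer cells of a type and less RNA per cell cannot be told apart.

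Among the sensors, Ern1, the ubiquitous kinase and ribonuclease that splices Xbp1 messenger RNA, had a lowest, median and highest level of 1.54, 12.1 and 16.4 TPM in the colon, 4.24, 6.86 and 7.75 for the ileum and 1.79, 4.51 and 9.23 for the duodenum. The single low colon library was treated A, and the other colon libraries had at least 9.73 TPM of Ern1. Atf6, the membrane-bound factor released by proteolysis, was lowest in that library too, at 8.49 TPM against 16.9 to 20.9 TPM in the others. Xbp1, whose spliced and unspliced forms these gene-level values do not separate, had 150, 170.5 and 225 TPM as lowest, median and highest in the colon, 104, 152 and 211 for the ileum and 132, 144 and 159 for the duodenum. Atf4, the factor translated when general translation falls, had 44.4, 71.0 and 111 TPM in the colon, 45.7, 68.6 and 83.7 for the ileum and 45.7, 63.3 and 77.6 for the duodenum. Ddit3, the pro-apoptotic factor CHOP, had 25.9, 32.8 and 41.8 TPM in the colon, 19.0, 30.0 and 36.0 for the ileum and 20.1, 34.2 and 45.6 for the duodenum. The regional ranges of Xbp1, Atf4 and Ddit3 overlapped for each pair of regions.

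The comparison of treated with deficient mice asks what calcitriol changes in each part of the intestine. Herpud1 had the largest positive difference of the members in each region. On log2(FPKM + 1), fitted with limma across all genes and adjusted by Benjamini-Hochberg over all genes tested, 0 of 33 tested members passed an adjusted p of 0.05 in the colon, where 0% of 12746 genes did. In the ileum 0 of 35 passed, against 0% of 12149 genes, and in the duodenum 0 of 34, against 0.0256% of 11734 genes (3 genes). These counts are of genes listed with such values known. By voom on the recovered reads 0 of 27, 0 of 29 and 0 of 28 members passed in the colon, ileum and duodenum. Over all genes the alternative fits, voom among them, called at most 2, 1 and 4 genes in those regions. At an unadjusted p under 0.05 stood 3 members in the colon (Herpud1 and Erlec1 higher, Eif2ak3 lower; all genes 5.85%). There were 2 in the ileum (Herpud1 and Erlec1 higher; all genes 5.84%) and 3 in the duodenum (Herpud1 higher, Ern1 and Hyou1 lower; all genes 9.4%). Positive differences were seen for 20 of 33 members in the colon, 23 of 35 in the ileum and 17 of 34 in the duodenum, against 47.3%, 51.7% and 51.9% of all genes tested. Within the serial libraries alone they numbered 19, 15 and 18, and within those with 4 digits 26 in the colon and 13 in the duodenum. The sign over all libraries was not that within the serial libraries for 9 members in the colon, 18 in the ileum and 7 in the duodenum. Counts within a scheme rest on treated library A or deficient library E alone on one side. Their shares over all genes are not given here, and nothing is read from them. The median difference of the members was 0.08, 0.06 and 0.00 on the log2 scale in the colon, ileum and duodenum, against −0.01, 0.01 and 0.01 over all genes tested. Derl3 and Trib3 in the colon and Chac1 in the duodenum were too low to be tested there.

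**Figure D2:**
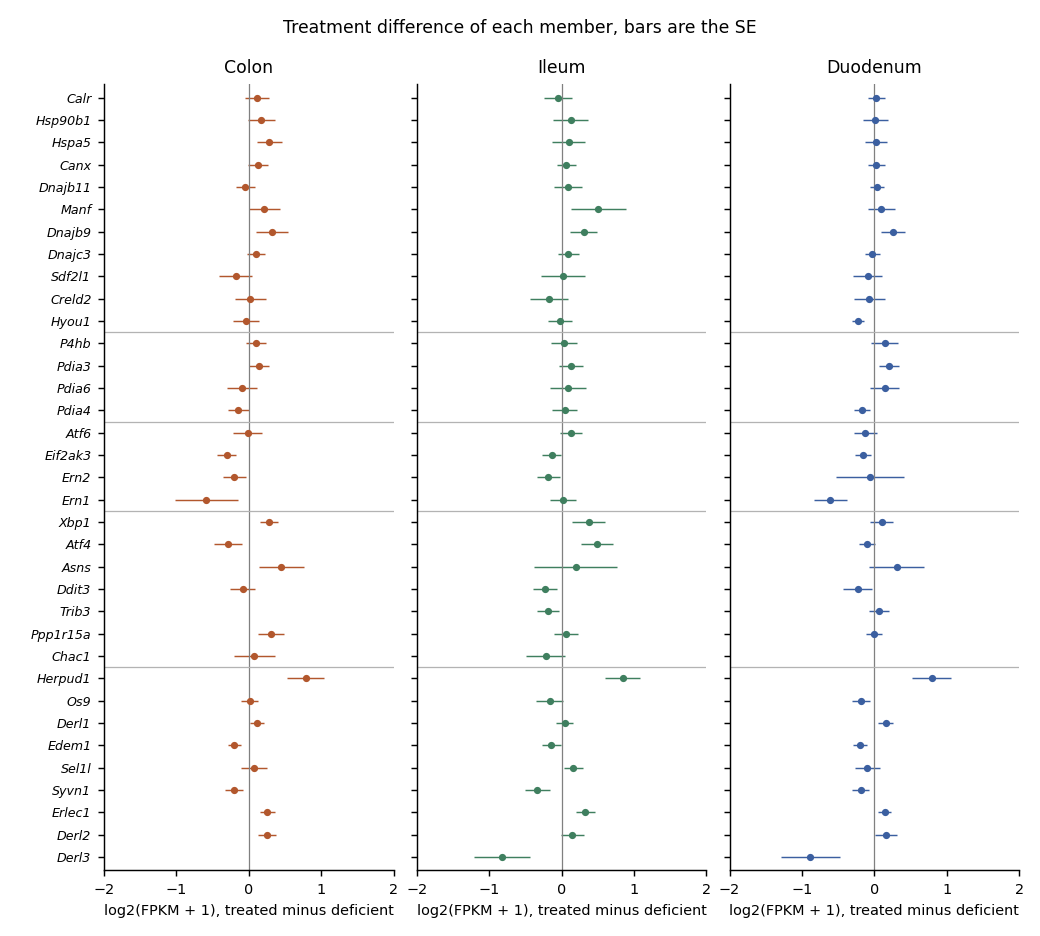
Difference of each tested gene on log2(FPKM + 1), treated minus deficient, with bars for its SE, in the colon, ileum and duodenum. Herpud1 lies at 0.79, 0.84 and 0.79 in the 3 regions.

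Herpud1, a membrane component of the degradation complex and a common marker of endoplasmic reticulum stress, had the largest positive treatment difference of the members in every region. It had 83.9, 113, 183 and 113 FPKM in treated colon (libraries A to D), against 80.8, 62.4, 87.0 and 49.8 FPKM in deficient colon (libraries E to H), and values per library are given in this order from here on. In the ileum, whose deficient libraries are F, G and H, it had 69.6, 113, 146 and 95.9 FPKM in treated mice, against 51.5, 64.2 and 55.2 FPKM in deficient mice. In the duodenum it had 87.2, 155, 175 and 179.6 FPKM in treated mice, against 118, 75.9, 86.0 and 59.7 FPKM in deficient mice. The groups did not overlap in the ileum, and in the colon and duodenum treated library A lay within the deficient range. In the colon the mean was 123 ± 42.3 FPKM in treated and 70.0 ± 17.0 FPKM in deficient mice (SD, n = 4 each). The log2 difference was 0.79 ± 0.25 in the colon, 0.84 ± 0.24 in the ileum and 0.79 ± 0.27 in the duodenum (SE). Within the serial libraries alone, with 1 treated library per region, it was 0.37, 0.29 and 0.25 in the colon, ileum and duodenum, and within the 4-digit libraries 0.71 in the colon and 0.52 in the duodenum. With any single library left out it ran from 0.58 to 0.95 in the colon, from 0.68 to 1.03 in the ileum and from 0.64 to 1.03 in the duodenum. The ratio of Herpud1 to Hspa5 within a library was 0.251 to 0.348 in treated ileum, against 0.123 to 0.218 in deficient ileum. It overlapped between the groups in the colon, at 0.253 to 0.542 in treated and 0.137 to 0.396 in deficient mice, and in the duodenum, at 0.292 to 0.567 in treated and 0.189 to 0.329 in deficient mice. Another annotated gene, Gm15890, overlaps Herpud1, and the sources used here do not state whether counting used the strand.

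**Figure D3:**
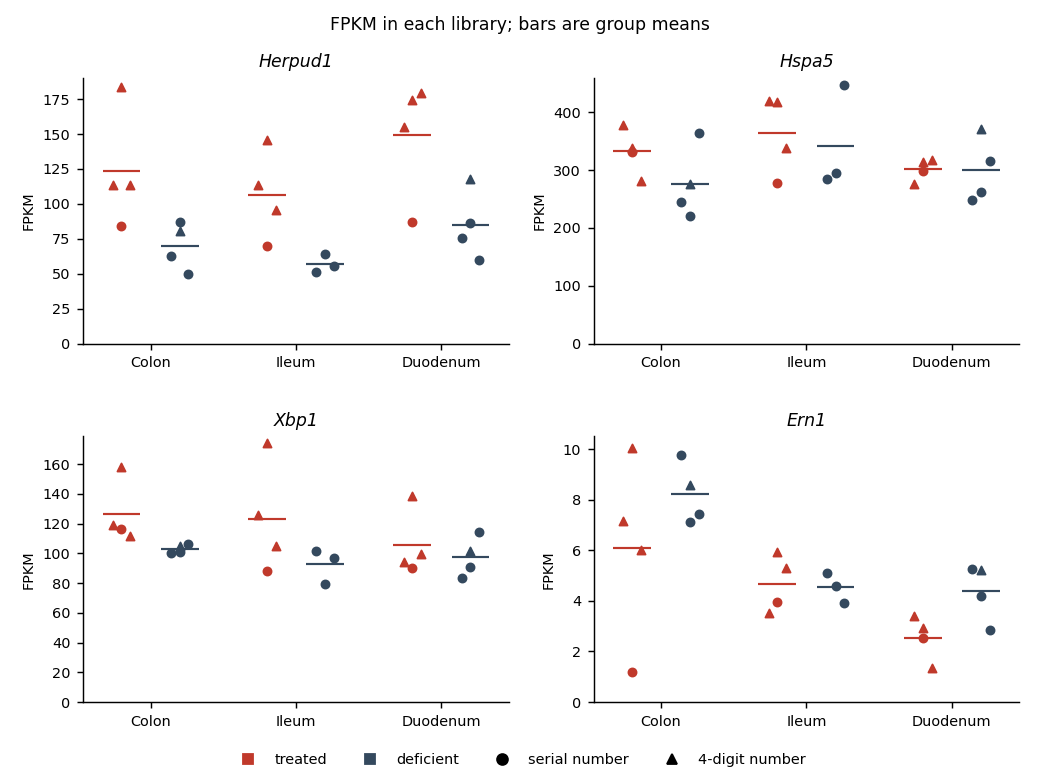
FPKM of Herpud1, Hspa5, Xbp1 and Ern1 in each library, treated left of deficient in each region, with circles for serial and triangles for 4-digit libraries and bars at the group means. Treated Herpud1 values reach 183 FPKM in the colon, 146 in the ileum and 179.6 in the duodenum, with treated library A lowest of the treated libraries in each region.

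Other members of the degradation route had smaller differences, except for the scarcely detected Derl3. Erlec1, a lectin that reads trimmed glycans on proteins due for degradation, had 19.96, 20.6, 23.6 and 22.6 FPKM in treated colon, against 19.9, 17.5, 17.3 and 17.2 FPKM in deficient colon. In the ileum it had 12.8, 16.8, 15.3 and 15.0 FPKM in treated mice, against 12.3, 10.5 and 12.3 FPKM in deficient mice. On FPKM, treated libraries lay above deficient ones in both regions, by 0.26 ± 0.10 in the colon and 0.33 ± 0.13 in the ileum (SE, log2), and the ranges overlapped in the duodenum. On TPM the Erlec1 groups overlapped in the colon and ileum too. Treated library A then had the lowest colon value (25.7 TPM), and in the ileum treated A and C lay below deficient F. Within the serial libraries the Erlec1 difference was 0.19 in the colon and 0.12 in the ileum, and within the 4-digit libraries it was 0.15 in the colon. Edem1, which trims mannose from misfolded glycoproteins, had all treated colon libraries (28.4 to 32.2 FPKM) below all deficient ones (32.5 to 36.8 FPKM), and Syvn1, the ubiquitin ligase of the complex, all treated ileum libraries (16.2 to 25.1 FPKM) below all deficient ones (25.8 to 30.0 FPKM). With Xbp1 and Erlec1 above and Eif2ak3 and Edem1 below, 4 of 33 members had groups that did not overlap on FPKM in the colon (all genes 4.54%). On the same scale there were 3 of 35 in the ileum (Herpud1, Erlec1 and Syvn1, all genes 6.56%) and 1 of 34 in the duodenum (Hyou1, all genes 4.37%). Such counts on TPM are not given here. Paneth cell markers, 7 of 8 listed with at most 1 at 0, were apart between the ileum groups as well, with sums of 38290 to 44864 TPM in treated and 48557 to 57637 TPM in deficient mice. Their part in the ileum differences was not tested. Derl3, named here after its values were seen, had 0.640, 1.32, 0 and 1.07 FPKM in treated ileum, against 1.74, 0.882 and 4.00 FPKM in deficient ileum, and 0.0376, 1.92, 0.605 and 0.704 FPKM in treated duodenum, against 0.490, 2.28, 3.14 and 3.77 FPKM in deficient duodenum. Its log2 difference was −0.82 ± 0.39 in the ileum and −0.89 ± 0.41 in the duodenum (SE). Among serial libraries the Derl3 difference was −0.85 in the ileum and −1.95 in the duodenum, and within the 4-digit libraries 0.42 in the duodenum. Plasma cell markers, 7 of 8 listed and none at 0, summed to 160 to 1127 TPM in treated and 289 to 2166 TPM in deficient duodenum, and to 289 to 879 TPM in treated and 565 to 1186 TPM in deficient ileum. Their part in the Derl3 values was not tested.

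Of the chaperones, Hspa5 had 332, 377, 338 and 281 FPKM in treated colon, against 276, 245, 219.7 and 364 FPKM in deficient colon, and the groups overlapped. It had 278, 419, 418 and 339 FPKM in treated ileum, against 284, 294 and 448 FPKM in deficient ileum, and 298, 276, 314 and 316 FPKM in treated duodenum, against 371, 248, 261 and 316 FPKM in deficient duodenum. Its log2 differences were 0.28 ± 0.17, 0.10 ± 0.23 and 0.03 ± 0.15 in the colon, ileum and duodenum (SE). The Hspa5 differences within the serial libraries were 0.30, −0.27 and 0.12, and within the 4-digit libraries 0.26 in the colon and −0.30 in the duodenum. Deficient library H was the highest deficient one for Hspa5 in the colon and ileum. Hyou1, which exchanges nucleotide on Hspa5, had 25.6, 23.1, 25.1 and 24.0 FPKM in treated duodenum, against 29.8, 29.6, 27 and 28.5 FPKM in deficient duodenum, a log2 difference of −0.22 ± 0.09 (SE), with −0.14 among serial libraries and −0.30 among those with 4 digits. Every treated duodenal library was below every deficient one for Hyou1, while in the colon and ileum the groups overlapped, with differences of −0.04 ± 0.18 and −0.02 ± 0.17. The colon difference of Hyou1 was −0.37 among serial libraries and 0.22 among those with 4 digits. Over the 11 chaperones and lectins the differences lay between −0.18 and 0.32 in the colon, −0.18 and 0.51 for the ileum, and −0.22 and 0.25 for the duodenum. Over the 4 disulfide isomerases they lay between −0.14 and 0.14, 0.03 and 0.13, and −0.17 and 0.20 in the colon, ileum and duodenum.

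Among the sensors, Ern1 had 2.55, 3.40, 2.91 and 1.35 FPKM in treated duodenum, against 5.23, 5.25, 4.20 and 2.86 FPKM in deficient duodenum. The groups overlapped only through deficient library H, and the log2 difference was −0.61 ± 0.23 (SE), with −0.50 among serial libraries and −0.86 among those with 4 digits. In the colon Ern1 had 1.195, 7.16, 10.1 and 6.04 FPKM in treated mice, against 8.59, 9.76, 7.14 and 7.45 FPKM in deficient mice, and its difference of −0.59 ± 0.44 became −0.09 without treated library A. It was −2.04 within the serial libraries, where A is the treated one, and −0.16 within the 4-digit libraries. In the ileum it had 3.98, 3.51, 5.93 and 5.30 FPKM in treated mice, against 5.09, 4.59 and 3.94 FPKM in deficient mice, a difference of 0.02 ± 0.18, with −0.15 within the serial libraries. Eif2ak3, the kinase that slows translation, had 7.42, 9.50, 9.76 and 10.5 FPKM in treated colon, against 13.2, 11.3, 11.2 and 10.9 FPKM in deficient colon. All treated values lay below all deficient ones, by a log2 difference of −0.30 ± 0.13 (SE; −0.53 among serial libraries and −0.38 among those with 4 digits), and the groups overlapped in the ileum and duodenum. Ern2 had 13.8, 13.8, 12.3 and 17.2 FPKM in treated colon, against 13.1, 20.3, 18.1 and 15.1 FPKM in deficient colon, and 5.44, 4.25, 4.71 and 5.77 FPKM in treated ileum, against 5.47, 7.26 and 4.95 FPKM in deficient ileum. In the duodenum Ern2 had 2.18, 2.28, 0 and 2.93 FPKM in treated mice, against 3.18, 0.361, 1.88 and 1.95 FPKM in deficient mice, with treated library C listed at 0. The Ern2 differences were −0.20 ± 0.16, −0.18 ± 0.16 and −0.06 ± 0.47 in the colon, ileum and duodenum. Within the serial libraries they were −0.34, −0.08 and 0.49, and within the 4-digit libraries 0.12 in the colon and −0.83 in the duodenum. Over all libraries the 4 sensors had a negative difference in 4 of 4 cases in the colon, 2 of 4 in the ileum and 4 of 4 in the duodenum. Of all genes tested, 47.3%, 51.7% and 51.9% had a positive difference in those regions.

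In the transcriptional arm, Xbp1 had 116, 119, 158 and 112 FPKM in treated colon, against 105, 100.1, 101 and 106 FPKM in deficient colon. These groups did not overlap on FPKM, and the log2 difference was 0.28 ± 0.13 (SE), with 0.18 among serial libraries and 0.28 among those with 4 digits. On TPM, treated library A had the lowest Xbp1 value of the colon (150 TPM), so the groups overlapped. Without treated library C the colon difference was 0.17. In the colon that library also had the highest sum of exocrine pancreas markers (52271 TPM, against 269 to 10944 TPM in the others), whose part in the Xbp1 values was not tested. Xbp1 had 88.2, 126, 174 and 105 FPKM in treated ileum, against 101, 79.4 and 96.9 FPKM in deficient ileum, and 89.9, 93.9, 139 and 99.4 FPKM in treated duodenum, against 102, 83.5, 90.7 and 114 FPKM in deficient duodenum. Treated library C was the highest treated one for Xbp1 in every region, and the groups overlapped in the ileum (0.37 ± 0.23) and the duodenum (0.10 ± 0.16). In the ileum the difference of Xbp1 was −0.06 within the serial libraries, and in the duodenum −0.08 among serial libraries and 0.10 among those with 4 digits. Atf4 had 34.5, 51.7, 44.9 and 36.7 FPKM in treated colon, against 39.4, 46.6, 51.4 and 69.5 FPKM in deficient colon. It had 60.5, 54.6, 68.2 and 47.5 FPKM in treated ileum, against 37.2, 30.6 and 58.2 FPKM in deficient ileum, and 44.8, 40.9, 39.8 and 41.9 FPKM in treated duodenum, against 39.6, 41.3, 52.4 and 47.3 FPKM in deficient duodenum. Its difference was 0.49 ± 0.23 in the ileum, −0.28 ± 0.19 in the colon and −0.10 ± 0.11 in the duodenum, with overlap in each region. The direction in the colon and duodenum turned with the naming scheme, since Atf4 differed by −0.66 among serial libraries and 0.16 among 4-digit libraries of the colon, and by −0.06 and 0.04 among those of the duodenum. In the ileum it differed by 0.57 within the serial libraries. Ddit3 had 27.6, 18.6, 18.2 and 17.4 FPKM in treated colon, against 26.3, 22.5, 20.2 and 17.5 FPKM in deficient colon. In the small intestine it had 24.6, 19.2, 15.7 and 20.7 FPKM in treated ileum, against 20.8, 24.1 and 25.4 FPKM in deficient ileum, and 24.8, 14.4, 17.5 and 26.1 FPKM in treated duodenum, against 29.4, 18.6, 24.0 and 24.4 FPKM in deficient duodenum. The Ddit3 groups overlapped in every region, with differences of −0.09 ± 0.18, −0.22 ± 0.16 and −0.23 ± 0.21 in the colon, ileum and duodenum. These turned with the scheme too, at 0.45, 0.07 and 0.15 within the serial libraries, against −0.52 in the colon and −0.62 in the duodenum within the 4-digit ones. The annotation of Ddit3 overlaps that of Mars. Asns, asparagine synthetase, was highest in treated library C in each region, at 47.7, 70.5 and 42.8 FPKM in the colon, ileum and duodenum, against 19.3 to 31.9, 12.3 to 24.3 and 12.9 to 17.9 FPKM in the other treated libraries.

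The difference in response between regions was computed as an interaction in 1 fit of all 23 libraries on log2(TPM + 1). It passed an adjusted p of 0.05 for 0 of 35 members in each pair of regions, against 0% of 14082 genes, and 1 member in each pair had an unadjusted p under 0.05 (all genes 1.53% for colon minus duodenum, 4.5% for ileum minus duodenum and 3.46% for colon minus ileum). For Atf4 the treatment difference in the ileum minus that in the duodenum was 0.78 ± 0.27 (SE, log2), and that in the colon minus that in the ileum was −0.92 ± 0.27. For Derl3 it was 1.43 ± 0.67 in the colon minus the duodenum. The naming scheme was not a term in this fit. The Herpud1 treatment differences were 0.04 ± 0.40 apart for colon minus duodenum, 0.24 ± 0.42 for ileum minus duodenum and −0.20 ± 0.42 for colon minus ileum. The median interaction of all genes was itself 0.01, 0.15 and −0.15 in those pairs on this scale.

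Of 107 further genes of translocation, glycosylation, redox folding, degradation, stress transcription and export, 101, 98 and 99 were tested in the colon, ileum and duodenum, and 0 passed the adjusted threshold for treatment. An unadjusted p under 0.05 was reached by 8, 4 and 7 of them, against 5.85%, 5.84% and 9.4% of all genes in the colon, ileum and duodenum. The genes named next had the smallest of these p-values, and none passed the adjusted threshold. In the colon they were Atf6b, a relative of Atf6 (20.3 ± 2.25 FPKM in treated and 25.1 ± 1.78 FPKM in deficient mice, SD, n = 4 each), Creb3l1 (69.4 ± 9.07 and 88.6 ± 11.9 FPKM) and the stress-induced Nupr1 (485 ± 201 and 285 ± 47.0 FPKM). In the ileum they were the mannosidase-like Edem3 (20.1 ± 2.97 FPKM in treated and 13.8 ± 2.60 FPKM in deficient mice), the export coat gene Sec31a (43.2 ± 4.06 and 33.1 ± 4.48 FPKM) and the ubiquitin-conjugating Ube2j1 (21.8 ± 2.20 and 16.0 ± 4.02 FPKM). In the duodenum they were the translocon gene Sec62 (59.9 ± 4.88 FPKM in treated and 47.9 ± 2.84 FPKM in deficient mice), Creb3l2 (8.41 ± 1.13 and 14.1 ± 4.56 FPKM) and the disulfide oxidase Ero1l (13.2 ± 0.966 and 16.5 ± 1.86 FPKM).

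The largest differences between the colon and the other regions on TPM were in Trib3, Ern2 and P4hb, and they had the same sign on each of 3 scalings (TPM, FPKM as deposited and median-ratio). Trib3, a pseudokinase target of Atf4 and Ddit3, had a lowest, median and highest level of 0.636, 0.979 and 1.45 TPM in the colon, against 10.7, 13.6 and 20.9 TPM for the ileum and 13.6, 15.9 and 19.6 TPM for the duodenum. Each colon library was below each of the others, and the log2 difference was −3.11 ± 0.12 for colon minus duodenum and −2.96 ± 0.13 for colon minus ileum (SE, n = 8, 7 and 8 libraries), while ileum and duodenum overlapped (−0.15 ± 0.13). Ern2 ran the other way, with 17.5, 23.7 and 34.1 TPM in the colon, 5.34, 7.52 and 10.8 TPM for the ileum and 0, 3.00 and 4.93 TPM for the duodenum. The 3 ranges of Ern2 did not overlap, and the differences were 2.94 ± 0.29 for colon minus duodenum, 1.36 ± 0.30 for ileum minus duodenum and 1.58 ± 0.30 for colon minus ileum. P4hb had 416, 492 and 579 TPM in the colon, 668, 965 and 1123 TPM for the ileum and 1217, 1526 and 1698 TPM for the duodenum, again without overlap. Its differences were −1.55 ± 0.11 for colon minus duodenum, −0.69 ± 0.11 for ileum minus duodenum and −0.86 ± 0.11 for colon minus ileum. Ppp1r15a, the regulatory subunit that reverses the Eif2ak3 signal, had 8.26, 13.0 and 16.9 TPM in the colon, 5.34, 8.03 and 9.72 TPM for the ileum and 3.94, 4.50 and 5.59 TPM for the duodenum, with 1.27 ± 0.12 for colon minus duodenum and 0.65 ± 0.13 for ileum minus duodenum. Its colon and duodenal libraries did not overlap, and its annotation overlaps that of Tulp2.

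**Figure D4:**
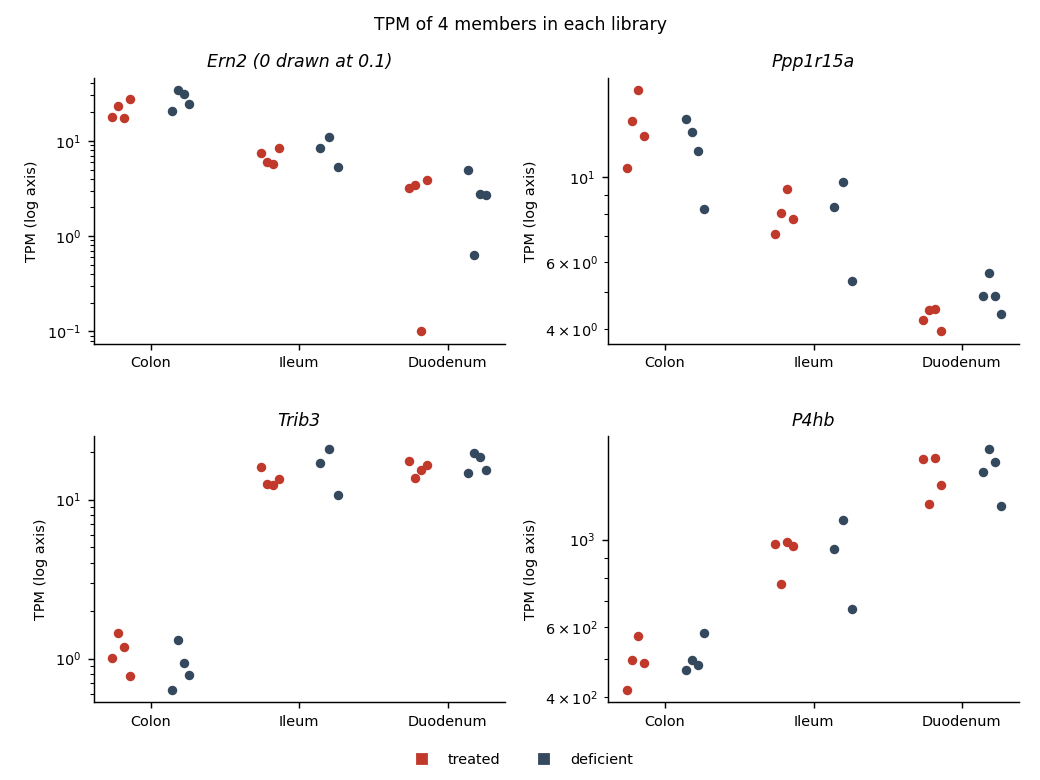
TPM of Ern2, Ppp1r15a, Trib3 and P4hb in each library of the colon, ileum and duodenum, treated left of deficient, on log axes with 0 drawn at 0.1. Trib3 is at most 1.45 TPM in the colon and at least 10.7 TPM in the other regions, and P4hb is at least 1217 TPM in the duodenum.

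The levels stood beside differences in other cell markers. Goblet cell markers, 9 of 9 above 0 in every library, summed to 21071 to 29220 TPM in the colon, 12314 to 21351 for the ileum and 6856 to 10763 for the duodenum. By median, Muc2, Clca3, Zg16, Agr2 and Spdef followed that order. Tff3 and Fcgbp were higher in the ileum (7500 and 523 TPM) than in the colon (6799 and 493 TPM). Clca1 and Retnlb were lower in the ileum (3.60 and 1.09 TPM) than in the duodenum (5.98 and 1.38 TPM). Smooth muscle markers (5 of 5) ran in the order of the goblet cell sums, at 886 to 3910, 592 to 1080 and 141 to 415 TPM. Fibroblast markers (5 of 5) did so too, at 321 to 562, 137 to 239 and 56.2 to 108 TPM, and so did Ern2. Enterocyte markers, 8 of 8 above 0, summed to 1009 to 2214 TPM in the colon, 13107 to 44954 for the ileum and 37306 to 53405 for the duodenum. Their ileum and duodenum ranges overlapped, and those of P4hb did not. Of the 8, 3 had a higher median in the ileum than in the duodenum (Vil1 at 1389 against 1101 TPM, Fabp2 at 11987 against 5573 TPM and Anpep at 3332 against 782 TPM). The other 5 had a lower median in the ileum (Fabp1 at 520 against 11026 TPM, Apoa4 at 1622 against 14172 TPM, Alpi at 393 against 2783 TPM, Lct at 124 against 446 TPM and Apoa1 at 12701 against 13547 TPM). Exocrine pancreas markers (16 of 16) summed to 269 to 52271 TPM in the colon and 276 to 2381 TPM in the ileum. In the duodenum their sum was 1562 to 98079 TPM. The part of any of these cells in the regional levels was not tested.

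Within a library, the ratio of 2 members does not depend on the scaling. P4hb over Pdia3, the isomerase that works with the lectins Calr and Canx, was 0.899 to 1.13 in the colon, 1.94 to 3.01 for the ileum and 3.59 to 5.71 for the duodenum, with no overlap. Within each region these ratios overlapped between the groups, at 3.59 to 5.20 in treated and 3.96 to 5.71 in deficient duodenum. Trib3 over Ddit3 was 0.0152 to 0.0465 in the colon, 0.390 to 0.650 for the ileum and 0.322 to 0.763 for the duodenum, so that colon libraries with Ddit3 at levels like those of the small intestine held little Trib3 RNA. Trib3 over Asns, another Atf4 target whose promoter holds the same element, was 0.0140 to 0.0372 in the colon, 0.145 to 0.948 for the ileum and 0.312 to 1.13 for the duodenum.

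Further members also kept the sign of a difference on each scaling. Canx, the membrane lectin chaperone, had 226, 277 and 309 TPM in the ileum, above each of the duodenal values of 136, 162 and 178 TPM, with colon values of 156, 237 and 258 TPM, and its differences were 0.77 ± 0.10 for ileum minus duodenum and −0.30 ± 0.10 for colon minus ileum. Atf6 had 12.0, 17.3 and 20.7 TPM in the ileum, against 6.96, 10.5 and 15.0 TPM in the duodenum (0.69 ± 0.17), and Chac1 1.40, 1.88 and 3.95 TPM in the ileum, against 0.548, 0.840 and 1.45 TPM in the duodenum (0.74 ± 0.21), both with overlap. Erlec1 had 25.7, 30.5 and 36.4 TPM in the colon, each above the ileum values of 13.2, 18.6 and 23.5 TPM (0.76 ± 0.10). Derl1, a derlin of the degradation channel, had 62.8, 70.4 and 71.2 TPM in the colon, each below the duodenal values of 74.0, 89.0 and 101 TPM (−0.34 ± 0.07), and in the ileum it was also lower than in the duodenum (−0.33 ± 0.08). Sel1l, the scaffold of the degradation complex, differed by −0.44 ± 0.16 for colon minus duodenum with overlap. For ileum minus duodenum the differences were −0.50 ± 0.18 for Dnajb9, −0.60 ± 0.21 for Herpud1, 0.37 ± 0.14 for Eif2ak3 and −0.26 ± 0.10 for Erlec1. These 4 no longer passed an adjusted p of 0.05 in 8, 7, 12 and 17 of the 23 fits with a library left out. Among 4-digit libraries the Erlec1 difference was −0.05. Ern1 was 0.96 ± 0.28 for colon minus duodenum and 0.63 ± 0.29 for colon minus ileum, the second of which was 0.93 without treated colon library A. Within the serial libraries the Ern1 differences were 0.05 and −0.17 in those pairs.

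The sign of the difference was the same on each scaling for 18 of 35 members for colon minus duodenum (10 positive and 8 negative), 32 for ileum minus duodenum (19 and 13) and 16 for colon minus ileum (4 and 12). For the others, 17, 3 and 19 in those pairs, it depended on the scaling. On TPM, 17 members passed an adjusted p of 0.05 as higher and 4 as lower for colon minus duodenum (all genes 62% and 11.7%), 9 higher and 5 lower for ileum minus duodenum (all genes 18.4% and 12.9%), and 9 higher and 3 lower for colon minus ileum (all genes 57.7% and 8.71%). After median-ratio scaling, which sets the typical gene equal between libraries, the splits were 2 higher and 21 lower, 6 and 8, and 2 and 17 in those pairs. All genes then stood at 28.7% and 31.1%, 17.2% and 20.5%, and 20.9% and 21.9%. On FPKM as deposited the splits were 10 and 6, 13 and 6, and 4 and 6, against 57.8% and 14.7%, 30.7% and 12.4%, and 44.8% and 12.95% of all genes. The median of all genes was 0.51, 0.09 and 0.44 on TPM, 0.39, 0.16 and 0.25 on FPKM and −0.01, 0.01 and 0.01 after median-ratio scaling. Relative to that median, the median member was −0.30, −0.30 and −0.35 for colon minus duodenum on the 3 scalings, 0.04, 0.06 and 0.03 for ileum minus duodenum, and −0.32, −0.33 and −0.37 for colon minus ileum. Groups of libraries did not overlap on TPM for 9 members for colon minus duodenum (all genes 33.7%), 3 for ileum minus duodenum (all genes 9.91%) and 6 for colon minus ileum (all genes 24.2%). These shares describe members whose regional levels were known when they were listed, and nothing is read from them. On TPM, 14 members passed the adjusted p of 0.05 for ileum minus duodenum over all libraries. That number was 9 without treated duodenal library D (all genes 3659 to 4891 with any single library left out).

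**Figure D5:**
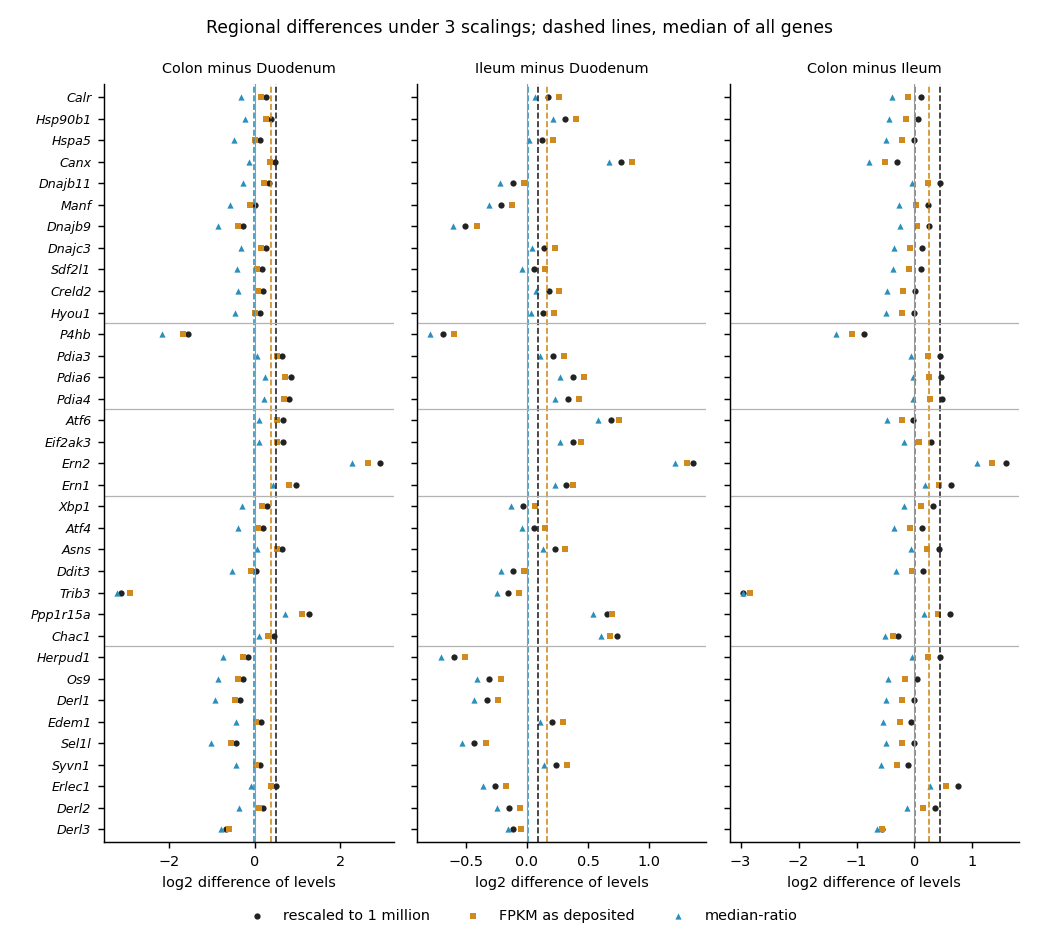
Log2 difference of each of the 35 genes between regions under 3 scalings (TPM, FPKM as deposited and median-ratio), 1 panel per pair of regions, with dashed lines at the median of all genes for each scaling. The medians of all genes lie at 0.51, 0.39 and −0.01 for colon minus duodenum, while Trib3, P4hb and Ern2 stay on their side of 0 under each scaling.

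Among the further pathway genes, 65 passed the adjusted threshold as higher and 11 as lower of 103 tested for colon minus duodenum on TPM (63.1% and 10.7%, against 62% and 11.7% of all genes). For ileum minus duodenum there were 13 and 17 (12.6% and 16.5%, against 18.4% and 12.9%), and for colon minus ileum 62 and 6 (60.2% and 5.83%, against 57.7% and 8.71%). After median-ratio scaling the splits of 101 tested were 19 and 39, 6 and 22, and 15 and 28 in those pairs, and all genes stood at 28.7% and 31.1%, 17.2% and 20.5%, and 20.9% and 21.9%. The smallest p-values for colon minus duodenum on TPM were those of the isomerase Pdia5 (63.4 ± 7.75 TPM in the colon and 9.97 ± 2.10 TPM in the duodenum, SD, n = 8 each), the enterocyte and liver stress factor Creb3l3 (15.4 ± 9.55 and 405.6 ± 42.5 TPM) and the cargo receptor subunit Mcfd2 (97.0 ± 5.33 and 220.3 ± 22.5 TPM). For ileum minus duodenum they were those of the oxidase Ero1lb (6.09 ± 0.943 TPM in the ileum and 21.1 ± 5.48 TPM in the duodenum), the coat gene Sec24d (41.2 ± 8.27 and 96.7 ± 19.0 TPM) and the retrieval receptor Kdelr2 (149 ± 13.7 and 221 ± 14.3 TPM). For colon minus ileum, Creb3l3 and Pdia5 again led, with Creb3l1 at 125 ± 29.8 TPM in the colon and 14.9 ± 3.07 TPM in the ileum.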

How the data were processed

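RNA of whole colon, ileum and duodenum was sequenced, and the authors deposited FPKM values per gene, with 21441 genes per table. Per the submitters' processing notes, the tools named are kallisto 0.45.0, DESeq 1.14.0 and DESeq2, and the build is mm9. The labels' protocols name CLC Genomics Workbench.

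The deposited 8-library ileum table equalled the duodenum table in 171528 of 171528 values, so the 7-library ileum table was used in place of the planned 4 against 4. Columns named Vehicle were taken as deficient, and column numbers could not be tied to replicate labels. Nothing in the labels says how far replicates were separate beyond being separate samples, so p-values measure the spread between these libraries. Whole reads were recovered from the FPKM steps for 82.71%, 82.69% and 82.69% of genes in the colon, ileum and duodenum (tolerance 0.0001), which gives the depths, and those reads entered only an alternative test.

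Genes that reached 1 FPKM in 3 or more libraries were fitted on log2(FPKM + 1), within each region for treatment. Regions and interactions were fitted over all libraries on log2(TPM + 1), where TPM is the deposited FPKM rescaled to a common sum. Folds on these scales understate the change of low genes. limma 3.58.1 (R 4.3.3) gave tests with Benjamini-Hochberg adjustment over all genes tested and a threshold of 0.05, and its fit was tested on simulated data. numpy 2.4.6, pandas 2.3.3 and matplotlib 3.10.9 (Python 3.11.15) gave summaries and figures.

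The members and gene lists were chosen with earlier results of these data known. The members named are Hspa5, Xbp1, Atf4, Ddit3, Ern1 and Ern2, the 3 with the smallest p per treatment comparison and the 5 with the largest difference per pair of regions, and other members are named with their values as descriptions. For ileum minus duodenum, libraries with the same group and number deviated together in 7 of 7 pairs (lowest correlation 0.13, median 0.22). Correlations of libraries with unlike numbers are not given here, so these values do not settle whether a number marks an animal. Alternatives were other scalings, pseudocounts and filters, voom on recovered reads with median-ratio library sizes, the naming scheme as a covariate, the 7-library tables, the replicate block, subsets of libraries and leaving out each library. Promoters of Manf, Hyou1, Ern2, Atf6, Derl1 and Erlec1 were not used here. The annotations of Ddit3, Herpud1, Hsp90b1, Manf, Ppp1r15a, Pdia3, Pdia6, Syvn1 and Derl2 overlap those of other genes, and the strand used in counting is not stated.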

Additional observations from a re-analysis of the deposited data

Results flagged for a closer look

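Among the 175 groups of 4 libraries examined on FPKM as deposited, 1 library stood apart from the other 3 by Dixon's criterion 21 times. Chance gives this in about 1 group in 20 when groups are independent. These groups hold different genes of the same libraries and are not independent, so nothing is read from the count. Of the treated libraries, C had the highest FPKM sum in the ileum (823387) and duodenum (870192), and A in the colon (775830). Whether the flags hold on TPM was not tested. Treated library C was the high one 9 times, for Ppp1r15a in the colon (11.9 FPKM against 7.95 to 8.34) and Xbp1 in the colon (158.0 FPKM against 111.6 to 119.2). In the ileum it stood apart for Canx (227.5 FPKM against 199.4 to 201.1), Dnajc3 (51.8 FPKM against 41.6 to 42.7), Hsp90b1 (577.7 FPKM against 326.2 to 366.9) and Pdia6 (170.9 FPKM against 101.6 to 109.7). In the duodenum it did so for Asns (42.8 FPKM against 12.9 to 17.9), Pdia3 (269.1 FPKM against 221.3 to 229.3) and Ppp1r15a (3.93 FPKM against 2.87 to 2.99). Deficient library H was the high one in the colon for Creld2 (54.4 FPKM against 29.5 to 32.7), Hsp90b1 (453.5 FPKM against 276.0 to 302.9), P4hb (362.0 FPKM against 283.9 to 295.0), Pdia3 (373.6 FPKM against 273.0 to 285.5) and Pdia4 (80.7 FPKM against 55.4 to 59.4), and the low one for Eif2ak3 in the duodenum (6.07 FPKM against 7.67 to 7.91). Treated library A was the high one for Ddit3 in the colon (27.6 FPKM against 17.4 to 18.6), Os9 in the duodenum (68.7 FPKM against 60.9 to 61.2) and Pdia4 in the duodenum (39.8 FPKM against 32.2 to 32.6). Deficient library E was the high one for Dnajb9 in the colon (51.6 FPKM against 34.2 to 35.6) and Erlec1 in the colon (19.9 FPKM against 17.2 to 17.5), and treated library B the low one for Dnajb11 in the duodenum (67.0 FPKM against 77.4 to 78.8).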

How the results depend on the processing

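For treatment, 0 members were called (adjusted p under 0.05) under every alternative run and without any single library, and likewise for the interactions. Over all genes the alternatives called at most 2, 1 and 4 for treatment in the colon, ileum and duodenum. With a library left out these were at most 3, 0 and 4. No paired analysis was possible because the treated and deficient groups share fewer than 2 numbers. The sign of some treatment differences changed, also within a naming scheme, as given beside each. In the colon, Ddit3 was 0.011 in the 7-library table and −0.23 to 0.0094 with a library left out (the highest without deficient E). In the ileum, with the naming scheme as a covariate, Hspa5 was −0.27, Xbp1 −0.061, Ddit3 0.073 and Ern1 −0.15, and Ern1 was −0.0062 after quantile normalization. With a library left out, ileum Ern1 ran between −0.083 and 0.12 (−0.037 without treated D, −0.061 without deficient H) and Hspa5 between −0.018 and 0.31. In the duodenum, Hspa5 was −0.088 after quantile normalization and −0.088 with the scheme, and Ern2 0.031 after quantile normalization and 0.16 in the 7-library table. With a library left out, duodenal Hspa5 ran between −0.057 and 0.14 (−0.033 without deficient G), Xbp1 between −0.038 and 0.18 and Ern2 between −0.38 and 0.39.

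Between regions, 21 members were called for colon minus duodenum, 14 for ileum minus duodenum and 12 for colon minus ileum. Serial libraries alone gave 10 for colon minus duodenum. For ileum minus duodenum the count was 4 in deficient libraries, 6 in treated libraries, 2 in serial libraries and 5 in 4-digit libraries. For colon minus ileum it was 19 after median-ratio scaling, 7 in treated libraries and 6 in 4-digit libraries, and Ern1 was −0.17 in serial libraries. Subsets hold fewer libraries. Over all genes the alternatives called 6407 to 11780 for colon minus duodenum, 1540 to 5769 for ileum minus duodenum and 5464 to 10342 for colon minus ileum. Nothing is read from the member counts. With a library left out the member counts ran from 20 to 23, 9 to 15 and 11 to 17 in those pairs (all genes 9958 to 10646, 3659 to 4891 and 8409 to 9925). With the replicate block they were 24, 17 and 14. The counts over all genes in that fit are not given here, and nothing is read from the member counts beside them. For colon minus duodenum 7 of 8 pairs and for colon minus ileum 6 of 7 correlated above 0.1 (lowest −0.03 and 0.06, median 0.18 and 0.24). Whether libraries with the same number came from the same animal was not tested. Members with their highest mean in the colon numbered 12 on FPKM and 22 on TPM. The cause of these changes was not tested. Recovered reads cover part of the genes, so the depth behind low members such as Derl3 is limited.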

Other observations

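Among the 3 deficient libraries present in all regions (F, G and H), the library with the number of H had the highest FPKM in every region for 13 of 35 members, against 20.1% of 11234 genes, and for 11 of the 15 chaperones and isomerases. After median-ratio scaling the counts were 13 and 11 (all genes 17.96%), and on TPM 5 and 4 (all genes 4.47%). Among the treated libraries, C was highest in every region for 11 of 35 members on FPKM, against 9.91% of all genes, for 9 after median-ratio scaling (9.05%) and for 5 on TPM (2.43%). The tables do not say whether libraries with the same number came from the same animal.

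Ern2 over Ern1 within a library had a median of 2.05 in the colon (range 1.22 to 11.5), 1.21 in the ileum (0.793 to 1.58) and 0.639 in the duodenum (0 to 2.18). The highest colon ratio was that of treated library A, where Ern1 was lowest. Ppp1r15a over Atf4 was 0.0743 to 0.265 in the colon, 0.0846 to 0.213 for the ileum and 0.0627 to 0.0989 for the duodenum. P4hb over Hspa5 was 0.784 to 1.29, 1.31 to 2.56 and 2.57 to 4.46 in the same regions, with no overlap between them.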
